A study of Rattus norvegicus with 6 samples.

Results

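The genes described here encode plasma transport proteins that hepatocytes make and release into blood. Their members were named by gene symbol, and each of the 10 symbols was found once in the table, so that 10 of 19616 genes were members. They were Alb, Afp, Afm and Gc of the albumin family, Ttr and Rbp4, Tf, Serpina6, Ahsg and Ambp. All 10 passed the filter on low values and were tested with 14864 genes in all.

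Liver RNA had been depleted of ribosomal RNA and sequenced, with 1 library for each of 6 male Sprague-Dawley rats. The FL group (rats FL2, FL5 and FL12) had received carbon tetrachloride (CCl4), a solvent that injures hepatocytes and leads to fibrosis when given repeatedly, mixed 1:1 with olive oil. It was injected into the peritoneum at 2 mL per kg body weight, 2 times a week for 5 weeks. The CL group (rats CL5, CL6 and CL7) received the same volume of olive oil. The p-values rest on the spread between these rats and, in the main test, also on the spread of other genes.

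Many small molecules dissolve poorly in water or are harmful when free, and travel in blood bound to a carrier. Hepatocytes secrete most of these carriers, so their mRNAs are among the most abundant of the liver, and the concentration of albumin in serum is used in the clinic as a measure of liver synthesis. The carriers differ in what they hold, from fatty acids and bilirubin on albumin to iron on transferrin, retinol on retinol-binding protein and cortisol or corticosterone on corticosteroid-binding globulin.

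Albumin, transthyretin and afamin mRNA were lower in every FL rat than in every CL rat, and transferrin mRNA was higher in every FL rat. The other 6 members overlapped between the groups. In FPKM, mapped fragments corrected for transcript length and library size, the FL mean was 76.9% of the CL mean for Alb, 65.1% for Ttr, 71.4% for Afm and 124% for Tf. Groups that did not overlap were seen for 4 of 10 members, 3 lower and 1 higher. Of all genes tested, 40.5% did not overlap, 4.78% being lower in the FL group and 35.7% higher.

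None of these differences passed the test across genes. With limma on log2(FPKM + 0.1) and Benjamini-Hochberg adjustment, 0 of 10 members had an adjusted p under 0.05. Of all genes tested, 16.9% were called higher and 1.94% lower. The prior SD, which limma takes from other genes of like level, was 1.69 for Alb, 0.83 for Tf and 0.71 for Ttr, against 0.24 for Afp. Calls were thus harder to reach for the most abundant members, and the counts do not show that these changed less. With a fold change of at least 2 as well, the count of members was again 0, and 9.29% of all genes were called higher and 0.935% lower. At an unadjusted p under 0.05 stood 1 member, Afm, against 35.5% of all genes. Without limma's sharing of variance between genes, 1 member, Alb, was called lower, and of the called genes in the lists below other than cell markers only Dbp, Nr2f2, Osmr and Tnfaip6 kept their calls. The median log2 difference, FL minus CL, was -0.35 over the members and 0.29 over all genes tested, and 7 of 10 members had a negative difference, as 22.1% of all genes did. With the FPKM as deposited, the median of all genes lay above the difference of 9 of 10 members, Tf being the exception, against 6 of 10 after quantile normalization. The median over all genes was 0.08 after median scaling, -0.04 after quantile normalization and 0.46 with equal summed FPKM. The median over the members was -0.57, -0.16 and -0.17 in the same order.

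**Figure D1:**
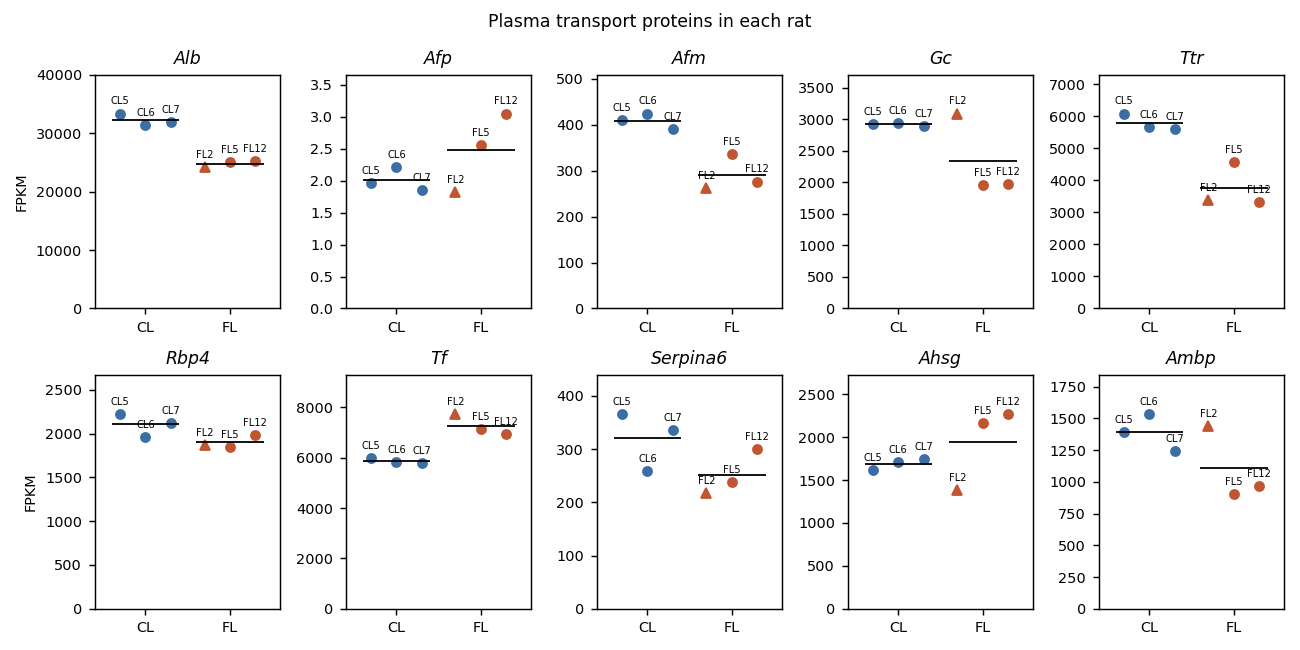
FPKM of each of the 10 genes in each rat (blue, CL group; orange, FL group; triangle, rat FL2), with group means as lines and every axis from 0. Alb, Afm and Ttr lay lower in the 3 FL rats than in the 3 CL rats and Tf higher, while FL2 stood apart from FL5 and FL12 for Gc, Ahsg and Ambp.

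Alb encodes albumin, the main protein of plasma, which carries fatty acids, bilirubin, hormones and many drugs and holds water in the vessels. Its FPKM was 33392 in CL5, 31431 in CL6 and 31992 in CL7, and 24149 in FL2, 25052 in FL5 and 25209 in FL12. The 3 FL rats lay close together and all below the CL rats. The means were 32272 ± 1010 (SD, n = 3) in the CL group and 24803 ± 572 (SD, n = 3) in the FL group. The log2 difference was -0.38, with a moderated SE of 0.98 and an adjusted p of 0.804. This SE came mostly from the prior. The SD of Alb around its group means was 0.04 on the log2 scale, and the prior SD that limma gave to genes of this level was 1.69. With the variance of each gene taken alone, an alternative chosen after the data were seen, the SE was 0.03, the 95% interval ran from -0.47 to -0.29 and the adjusted p was 0.0376. Under the other alternatives the adjusted p of Alb ran from 0.0789 to 0.952. The prior SD was above the gene's own SD in 8 of 10 members. An exact permutation test of 3 against 3 rats cannot give a two-sided p below 0.1. Alb, Afm, Ttr and Tf each reached it, as must any gene without overlap, 40.5% of all genes tested.

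Alb was the most abundant mRNA in CL5 and in the 3 FL rats, and second to Mup5 in CL6 and CL7. Mup5, a major urinary protein gene, had 24937, 48588 and 36722 FPKM in rats CL5, CL6 and CL7, against 55.0, 209 and 33.0 in FL2, FL5 and FL12. It thus took 11.3% of the summed FPKM in the mean of the CL group and 0.0356% in that of the FL group. As a share of the summed FPKM of its rat, Alb was 10.8%, 9.23% and 10.1% in CL5, CL6 and CL7, and 7.81%, 9.20% and 9.26% in FL2, FL5 and FL12. On this scale the groups overlapped, since FL12 lay just above CL6. The log2 difference of Alb was -0.60 after median scaling, -0.20 with equal summed FPKM and 0.49 after quantile normalization. Quantile normalization gives each gene a value set only by its rank within the rat. The ranks of Alb, first in CL5 and the FL rats and second in CL6 and CL7, thus fixed the positive sign there. In whole liver, fewer hepatocytes and less RNA per hepatocyte cannot be told apart.

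Afp encodes alpha-fetoprotein, the carrier that takes the place of albumin in the fetus and is switched off around birth. It was the lowest of the members, at 1.97, 2.21 and 1.86 FPKM in rats CL5, CL6 and CL7, against 1.82, 2.55 and 3.05 in FL2, FL5 and FL12. FL5 and FL12 lay above the CL rats and FL2 below them, so the groups overlapped. Its log2 difference was 0.26 (SE 0.21, adjusted p = 0.409). The difference was 0.45 without FL2, 0.10 without FL12 and 0.04 after median scaling. Per 100 units of Alb, Afp stood at 0.00590, 0.00703 and 0.00581 in the CL rats and 0.00754, 0.0102 and 0.0121 in the FL rats, in the same order of rats. The FL rats were all above the CL rats in this ratio, which does not change with a factor applied to a whole library. The log2 ratio differed by 0.64 between the groups. Relative to the median of all genes, the log2 differences were -0.67 for Alb and -0.03 for Afp. Quantile normalization, which applies no single factor, turned the order, with log2 differences of -0.17 for Afp and 0.49 for Alb. The sign for Alb was fixed by its ranks, as given above. Of 8 tested rows of genes known from fetal liver, Afp among them, 4 were called higher and 0 lower, with a median log2 difference of 0.61. The glycolytic enzyme Aldoa rose by 0.92 (SE 0.16, adjusted p = 0.00979), and both rows of Pkm, which may share reads, were called. With the variance of each gene alone, 0 of the 8 were called (adjusted p = 0.0705 for Aldoa). Aldoa and Pkm are also made by cells other than hepatocytes. In the same rats 6 of 10 markers of macrophages and 5 of 11 of stellate cells were called higher, beside 16.9% of all genes tested. The part of these cells in the fetal liver genes was not tested. Igf2, Gpc3 and Igf2bp3 were not called (log2 differences 0.30, 0.27 and -0.22). The last called gene was Dlk1, listed at 0 in the CL rats and at 0.17, 0.26 and 1.57 FPKM in the FL rats, whose call was lost without CL5, CL6, CL7 or FL5 (adjusted p from 0.078 to 0.119). It was lost as well with a pseudocount of 1 (0.139), without a filter (0.0543), after median scaling (0.0591) or quantile normalization (0.081), and in limma without trend (0.0579).

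Afm encodes afamin, a carrier of vitamin E that also binds Wnt proteins. Its FPKM was 409, 424 and 391 in CL5, CL6 and CL7, and 263, 336 and 276 in FL2, FL5 and FL12. Every FL rat lay below every CL rat, with FL5 the nearest to them. The log2 difference was -0.49 (SE 0.17, 95% interval -0.88 to -0.10, unadjusted p = 0.0194, adjusted p = 0.0786). After median scaling it was -0.72 and passed the threshold (adjusted p = 0.033), and adjusted p-values ran from 0.0303 to 0.24 over all alternatives. As a share of summed FPKM, Afm was also lower in every FL rat.

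Gc encodes the vitamin D-binding protein, which also clears actin released from damaged cells. It had 2929, 2938 and 2899 FPKM in rats CL5, CL6 and CL7, against 3090, 1955 and 1976 in FL2, FL5 and FL12. FL2 lay above the CL rats and the other FL rats lay well below them. On the log2 scale Gc differed by -0.35 (SE 0.35, adjusted p = 0.499). Without FL2 the difference was -0.57 (adjusted p = 0.102), and after median scaling without FL2 it was -0.84 (adjusted p = 0.0586). The coefficient of variation of Gc was 0.706% in the CL group and 27.7% in the FL group.

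Ttr encodes transthyretin, which carries thyroxine and, through its complex with retinol-binding protein, retinol. It had 6085, 5658 and 5595 FPKM in rats CL5, CL6 and CL7, against 3394, 4565 and 3320 in FL2, FL5 and FL12. All FL rats were lower than all CL rats, FL2 and FL12 the most. The log2 difference of -0.63 was the most negative of the members (SE 0.42, adjusted p = 0.316), and it was -0.86 after median scaling and -0.42 after quantile normalization. As a share of summed FPKM, the groups overlapped.

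Rbp4 encodes retinol-binding protein, which leaves the hepatocyte once it has bound retinol. Its FPKM was 2225, 1963 and 2124 in CL5, CL6 and CL7, and 1869, 1849 and 1980 in FL2, FL5 and FL12. FL12 lay within the range of the CL rats and the other FL rats lay below it. On the log2 scale Rbp4 differed by -0.15 (SE 0.29, adjusted p = 0.74), and it was 0.03 with equal summed FPKM and 0.01 after quantile normalization. Rbp4 as a percent of Ttr, a ratio chosen after the values were seen, was 36.6, 34.7 and 38.0 in the CL rats and 55.1, 40.5 and 59.6 in FL2, FL5 and FL12. The FL rats were all higher in this ratio, FL5 the least.

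Tf encodes transferrin, which binds ferric iron in plasma and delivers it to cells through the transferrin receptor. Its FPKM was 5974, 5824 and 5796 in CL5, CL6 and CL7, and 7746, 7144 and 6943 in FL2, FL5 and FL12. Every FL rat was above every CL rat, FL2 the highest. The log2 difference was 0.31 (SE 0.48, adjusted p = 0.671). Over the scalings it ran from 0.09 after median scaling to 0.78 after quantile normalization, and it was 0.00 after median scaling without FL2. With the variance of Tf alone, the 95% interval was 0.17 to 0.45 and the adjusted p was 0.0557, beside 0.133 to 0.999 under the other alternatives. Relative to Alb, Tf stood at 17.9%, 18.5% and 18.1% in CL5, CL6 and CL7, and at 32.1%, 28.5% and 27.5% in FL2, FL5 and FL12. This log2 ratio differed by 0.69, and the groups did not overlap. After quantile normalization the log2 differences were 0.78 for Tf and 0.49 for Alb. Relative to Alb, Afp, Rbp4 (log2 ratio 0.23 higher) and Ahsg (0.54 higher) also lay above the CL rats in every FL rat. Relative to the median of all genes, the log2 differences were -0.67 for Alb, 0.02 for Tf, -0.43 for Rbp4 and -0.13 for Ahsg. A gene at that median thus also stood higher relative to Alb. The ratios of Afm, Gc, Ttr, Serpina6 and Ambp to Alb overlapped.

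Serpina6 encodes corticosteroid-binding globulin, a serpin that has lost protease inhibition and releases its hormone when cleaved at sites of inflammation. Its FPKM was 366, 259 and 335 in CL5, CL6 and CL7, and 218, 237 and 300 in FL2, FL5 and FL12. FL12 lay within the range of the CL rats, and the other FL rats lay below it. Serpina6 had a log2 difference of -0.34 (SE 0.20, adjusted p = 0.254).

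Ahsg encodes fetuin-A, which keeps calcium phosphate in solution. It had 1615, 1712 and 1750 FPKM in rats CL5, CL6 and CL7, against 1381, 2161 and 2271 in FL2, FL5 and FL12. FL2 was the lowest of the 6 rats and the other FL rats were the highest. Ahsg had a log2 difference of 0.16 (SE 0.32, adjusted p = 0.739), and it was -0.06 after median scaling. This difference was 0.39 without FL2, 0.07 without FL5 and 0.03 without FL12. Ambp encodes a precursor that is cut into alpha-1-microglobulin, a carrier of heme and retinol, and bikunin, the light chain of the inter-alpha-inhibitors. It had 1391, 1535 and 1245 FPKM in rats CL5, CL6 and CL7, against 1438, 907 and 969 in FL2, FL5 and FL12. FL2 lay within the range of the CL rats and the other FL rats lay below it. For Ambp it was -0.36 (SE 0.28, adjusted p = 0.391).

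**Figure D2:**
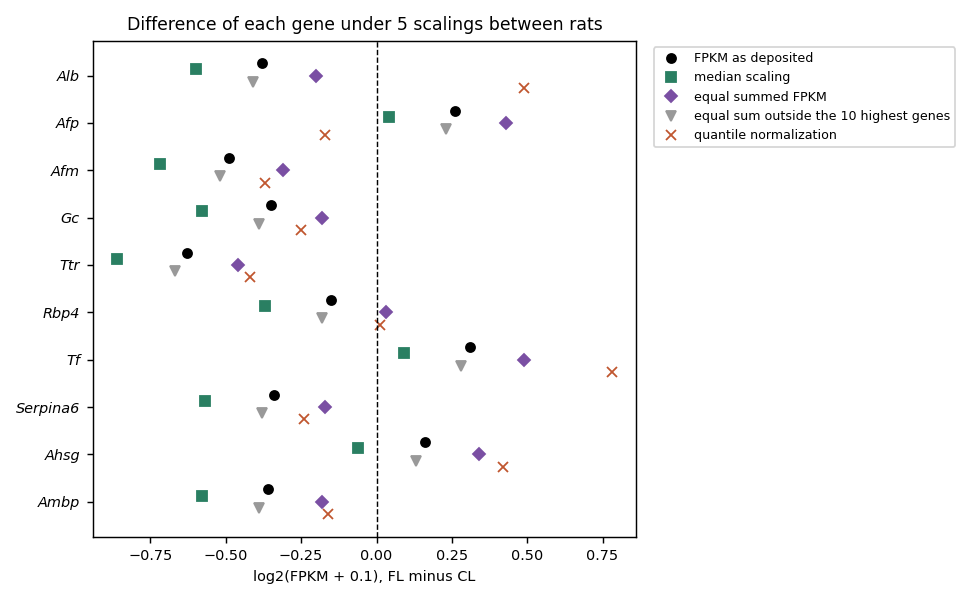
Log2 difference, FL minus CL, of each of the 10 genes with the FPKM as deposited and under 4 other scalings between rats; the dashed line marks 0. Afm, Gc, Ttr, Serpina6 and Ambp lay below 0 and Tf above 0 under all 5, while Alb, Afp, Rbp4 and Ahsg changed sign under at least 1.

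Rat FL2 stood apart from FL5 and FL12 for Gc, Ahsg and Ambp, while for Ttr and Afm it was FL5 that lay apart from the other FL rats and for Serpina6 it was FL12. FL2 was also the lowest of the FL rats for Alb and Afp and the highest for Tf. Without FL2, 0 of 10 members passed limma's threshold and 4 of 10 had an unadjusted p under 0.05. With FL2 left out and median scaling, an alternative added after the data were seen, 2 of 10 were called lower, Ambp (log2 difference -0.83, adjusted p = 0.0331) and Afm (-0.69, adjusted p = 0.0303). Under the other alternatives, the adjusted p of Ambp ran from 0.0764 to 0.647.

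Ordered by mean FPKM, the CL group ran Alb, Tf, Ttr, Gc, Rbp4, Ahsg, Ambp, Afm, Serpina6 and Afp. Of neighbours in this order, only Tf and Ttr overlapped over the CL rats, their means differing 1.01-fold. In the FL group the order was the same except that Ahsg stood before Rbp4. There Tf was 1.94-fold above Ttr with no overlap, while Gc and Ahsg, Ahsg and Rbp4, and Afm and Serpina6 overlapped.

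Together the 10 members summed to 54389, 51746 and 52128 FPKM in rats CL5, CL6 and CL7, against 43548, 44210 and 43248 in FL2, FL5 and FL12. The FL rats were all lower, and their mean was 82.8% of that of the CL group. The members were 17.6%, 15.2% and 16.5% of the summed FPKM in rats CL5, CL6 and CL7, against 14.1%, 16.2% and 15.9% in FL2, FL5 and FL12. As shares, the groups overlapped. Alb alone made up 61.4%, 60.7% and 61.4% of the sum of the members in the CL rats, and 55.5%, 56.7% and 58.3% in FL2, FL5 and FL12.

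Among 16 other plasma proteins of hepatocytes that bind a ligand, 1 was called higher and 1 lower, with a median log2 difference of 0.38 beside 0.29 over all genes. The counts were 3 and 0 with equal summed FPKM and 1 and 3 after median scaling without FL2. Serpina7, which encodes thyroxine-binding globulin, had 1.81, 4.90 and 2.76 FPKM in rats CL5, CL6 and CL7, against 31.5, 15.7 and 13.2 in FL2, FL5 and FL12. Every FL rat lay far above the CL rats, and Serpina7 rose by 2.64 on the log2 scale (SE 0.41, adjusted p = 0.00655, but 0.0762 with its own variance alone). Thus the mRNAs of the thyroxine carriers Ttr and Serpina7 stood in opposite directions in the FL rats, although Ttr did not pass the test. Igfals, whose product stabilises the complex of insulin-like growth factors in plasma, fell by 0.48 (SE 0.13, adjusted p = 0.0361). The call of Igfals was lost without any of CL5, CL6, CL7, FL5 and FL12, with adjusted p-values from 0.0761 to 0.127, with equal summed FPKM (0.113) and in limma without trend (0.0735).

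The heme and hemoglobin carriers were highest in rat FL2. Hp, which encodes haptoglobin, had 2572, 2317 and 2458 FPKM in rats CL5, CL6 and CL7, against 7491, 2498 and 3546 in FL2, FL5 and FL12. Hpx, which encodes hemopexin, had 2077, 2044 and 2259 FPKM in the CL rats and 7001, 1899 and 2759 in the FL rats. FL5 lay within or below the range of the CL rats. Neither passed the test, with adjusted p-values of 0.309 for Hp and 0.394 for Hpx.

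**Figure D3:**
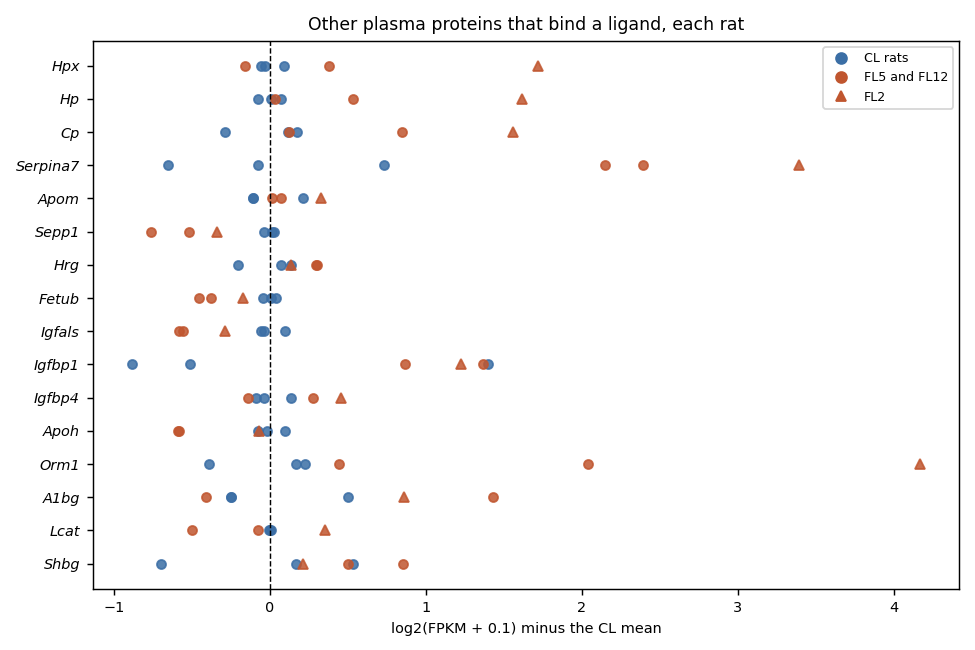
Log2(FPKM + 0.1) of 16 other plasma proteins that bind a ligand, in each rat, minus the mean of the CL group (blue, CL rats; orange circles, FL5 and FL12; orange triangles, FL2). Serpina7 lay higher and Igfals lower in every FL rat, and FL2 lay farthest to the right for Hpx, Hp, Cp and Orm1.

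The partners and targets of the carriers were taken from lists. The product of Ambp, bikunin, is joined to heavy chains, and of 5 genes for the heavy chains and the transfer enzyme, only Tnfaip6, the enzyme, was called, as higher. It had 0, 0 and 0.04 FPKM in the CL rats and 0.29, 0.24 and 0.24 in the FL rats, which rests on few reads, and the call was lost when any rat other than FL2 was left out (adjusted p from 0.0641 to 0.0813) and after quantile normalization (0.092). Itih1, a heavy chain, was called lower without FL2 (adjusted p = 0.0331) and after median scaling without FL2. For iron, 0 of 13 measured genes of uptake, storage and export were called by limma, and the unadjusted p was under 0.05 for Slc11a2 and Aco1. The count was 3 higher with equal summed FPKM, 1 higher without FL2 and 1 lower after median scaling. Hamp, the iron hormone hepcidin, had 91.2, 243 and 390 FPKM in the CL rats and 1009, 115 and 525 in FL2, FL5 and FL12, with overlap.

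Of 14 tested genes of retinoid uptake, storage and response, 2 were called higher and 0 lower. Rbp2, a cellular retinol-binding protein best known from the intestine, had 0.06, 0 and 0.07 FPKM in the CL rats and 0.53, 1.27 and 1.52 in FL2, FL5 and FL12. The FL rats were all higher, by 3.00 on the log2 scale (SE 0.45, adjusted p = 0.00592, but 0.0566 with its own variance alone). Rara, a retinoic acid receptor, was the other (log2 difference 0.69, SE 0.16, adjusted p = 0.025), and its call was lost without CL5, CL7 or FL5 (adjusted p from 0.0785 to 0.0894) and after median scaling or quantile normalization. Cyp26b1, an enzyme that breaks down retinoic acid, was called lower after quantile normalization (adjusted p = 0.0363) and without CL7 (0.0474).

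For thyroid hormone, 1 of 9 tested genes was called higher, Serpina7, and 1 lower, Dio1. Dio1 encodes the deiodinase that makes the active hormone in liver. It had 48.7, 52.8 and 55.8 FPKM in rats CL5, CL6 and CL7, against 37.9, 26.1 and 26.9 in FL2, FL5 and FL12. All FL rats were lower, and Dio1 fell by 0.81 (SE 0.16, adjusted p = 0.0146). Its adjusted p was 0.0563 or 0.0609 without FL5 or CL7.

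For vitamin D, 4 genes were tested and 1 was called. Dab2, an adaptor of endocytosis that macrophages make as well, had 5.71, 5.88 and 6.03 FPKM in the CL rats and 9.91, 14.7 and 14.6 in FL2, FL5 and FL12, and rose by 1.12 (SE 0.17, adjusted p = 0.00609, but 0.0594 with its own variance alone). Of 12 rows of glucocorticoid handling and response, in which Nr3c1 and Tsc22d3 have a pair of rows each, 1 was called higher and 2 lower. With any CL rat left out these counts were 0 and 1, and without FL2 they were 3 and 3. Zbtb16, a target of the glucocorticoid receptor, had 16.4, 15.7 and 16.1 FPKM in the CL rats and 5.29, 7.06 and 9.14 in the FL rats. It was lower in every FL rat and fell by 1.19 (SE 0.19, adjusted p = 0.00702, but 0.068 with its own variance alone). Hsd11b2, which encodes an enzyme that inactivates corticosterone, had 0.67, 0.63 and 1.07 FPKM in the CL rats and 0, 0.26 and 0 in the FL rats, and its call as lower was lost without CL5, CL6, CL7 or FL12 (adjusted p from 0.0529 to 0.0886). Fkbp5, another target of that receptor, differed the other way (log2 difference 0.81, SE 0.17, adjusted p = 0.0188), and its call was lost without CL5, CL6 or CL7 (adjusted p from 0.0545 to 0.0631) and after median scaling or quantile normalization. Of 6 tested genes of albumin recycling and receptors, limma called 0 and Lrp2 had an unadjusted p under 0.05, and 2 were called lower after median scaling without FL2. Among the 6 genes tested was Fcgrt, the receptor that returns albumin to the blood. Fcgrt had 33.5, 25.4 and 25.2 FPKM in the CL rats and 27.6, 32.1 and 29.0 in the FL rats. Its groups overlapped, with a log2 difference of 0.09.

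Alb, Afp and Afm lie side by side on chromosome 14, and Gc lies farther along the same chromosome. Of the 6 protein-coding neighbours around Alb, Afp and Afm in the RefSeq annotation of assembly GRCr8, 5 were in the table and 4 were tested. Limma called 0 of these 4, with unadjusted p-values of 0.0322 for Rassf6 and 0.0321 for Adamts3. Rassf6, beyond Afm, had 3.70, 4.03 and 2.94 FPKM in the CL rats and 1.83, 2.86 and 2.62 in the FL rats. Ankrd17, next to Alb, had 9.17, 9.59 and 9.44 in the CL rats and 10.1, 11.8 and 11.8 in the FL rats. Rassf6 was lower and Ankrd17 higher in all FL rats.

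Transcription factors of the Alb and Afp promoters include liver-enriched regulators and rhythmic ones. Of 22 such factors, 5 were called higher and 1 lower, with a median log2 difference of 0.07. The higher count was 8 with equal summed FPKM, and 3 after median scaling or without CL5, CL6, CL7 or FL12. The lower count was 0 without CL6, CL7, FL5 or FL12 and 4 after median scaling without FL2. Foxa2 (log2 difference -1.06) was called lower without CL5 or FL2. Dbp, named for its binding to the D site of the Alb promoter and a gene with a daily rhythm in liver, had 0.46, 0.91 and 0.81 FPKM in rats CL5, CL6 and CL7, against 25.6, 27.1 and 31.8 in FL2, FL5 and FL12. All FL rats were far higher, and Dbp rose by 5.13 (SE 0.23, adjusted p = 0.000126). Its relative Tef rose by 0.87 (SE 0.16, adjusted p = 0.0123), with an adjusted p of 0.0533 without CL7 and 0.0536 after quantile normalization, where 2 factors, Dbp and Nr2f2, were called higher. Nr2f2, a nuclear receptor, rose by 0.76 (SE 0.12, adjusted p = 0.00626). Hlf and Nr2f1 were called higher too, and neither call was kept after median scaling or quantile normalization or without CL5, CL6 or FL12 (adjusted p from 0.0607 to 0.176). Nr2f1 also lost its call without CL7 (0.0985), FL5 (0.0904) or a filter (0.0599) and with equal sums outside the 10 highest genes (0.0529). Hlf also lost its call without FL2 (0.0517) and in limma without trend (0.0511). Nfil3, which binds the same sequences as Dbp as a repressor, fell by 1.01 (SE 0.24, adjusted p = 0.0249), and its call was lost without any of CL5, CL6, CL7, FL5 and FL12 (adjusted p from 0.0554 to 0.0877) and in limma without trend (0.0553). Hnf4a had 125, 119 and 131 FPKM in the CL rats and 108, 109 and 108 in the FL rats. It was lower in every FL rat without passing the test (adjusted p = 0.239).

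Because these factors are known for their sites at Alb and Afp, the promoters of both are shown, from 250 bases before the start of transcription to 50 after it. Promoters of 8 of 10 members were matched by symbol in RefSeq sequences of GRCr8. Capitals mark the motif TTNTGTAA, of the kind bound by Dbp and C/EBP proteins, which was chosen with the Alb sequence in view, and the motif CCAAT. Both strands were searched. The Alb promoter lies at chr14:17906930-17907229 and the Afp promoter at chr14:17875596-17875895, each on the minus strand.
Alb: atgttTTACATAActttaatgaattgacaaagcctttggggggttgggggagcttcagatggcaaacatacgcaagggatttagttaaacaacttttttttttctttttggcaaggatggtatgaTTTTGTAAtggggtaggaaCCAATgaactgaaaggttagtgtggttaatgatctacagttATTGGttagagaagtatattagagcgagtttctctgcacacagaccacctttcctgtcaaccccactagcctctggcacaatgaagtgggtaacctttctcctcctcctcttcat
Afp: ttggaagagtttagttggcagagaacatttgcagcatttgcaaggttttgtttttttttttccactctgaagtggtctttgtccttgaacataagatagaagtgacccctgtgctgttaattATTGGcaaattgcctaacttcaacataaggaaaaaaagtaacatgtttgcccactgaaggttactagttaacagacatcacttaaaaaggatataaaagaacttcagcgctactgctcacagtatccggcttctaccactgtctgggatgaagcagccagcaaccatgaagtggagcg
TTNTGTAA was found 125 bases before the start and, on the other strand, 245 before it in Alb, in none of the other 7, and in 4.05% of all 33469 promoters. The motif CCAAT was found 106 bases before the start and, on the other strand, 65 before it in Alb, and 128 before it on the other strand in Afp. It was in 5 of 8 promoters and in 37.5% of all. No 2 of these matches overlapped in Alb or Afp.

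Acute-phase genes, which hepatocytes regulate in response to inflammatory cytokines, and genes of that cytokine signalling were taken as 1 list. The synthesis of some plasma carriers, albumin and transthyretin among them, falls in that response. Of the members, 7 had a negative log2 difference and 3, Tf, Ahsg and Afp, a positive one. Of the 20 acute-phase and signalling genes, 5 were called higher and 0 lower, with a median log2 difference of 0.50. They were Lcn2, A2m and Lbp and the cytokine receptor genes Osmr and Il1r1. The call of Il1r1 was lost without CL6, CL7 or FL12 (adjusted p from 0.0603 to 0.0692), after median scaling or quantile normalization and in limma without trend. Called higher were 3 genes without CL6 or FL12 and 1, Osmr, with the variance of each gene alone. Without FL2, 5 were called higher and 4 lower, and after median scaling without FL2, 4 and 4. Crp and Apcs were lower in every FL rat (log2 differences -0.92 and -0.66, adjusted p = 0.0911 and 0.0811). Lcn2 had 1.35, 1.35 and 3.75 FPKM in rats CL5, CL6 and CL7, against 490, 13.1 and 168 in FL2, FL5 and FL12. Lbp, the carrier of bacterial lipopolysaccharide, had 16.9, 16.0 and 23.5 FPKM in the CL rats and 180, 49.2 and 83.3 in the FL rats. FL2 was the highest and FL5 the lowest of the FL rats in both Lcn2 and Lbp. Lbp rose by 2.28 (SE 0.42, adjusted p = 0.0111), and Lcn2 by 5.68 (SE 1.15, adjusted p = 0.0152), the latter losing its call without CL5, CL6 or FL12 (adjusted p from 0.0511 to 0.0536). The part of this response in the levels of the carriers was not tested.

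Of the hepatocyte markers, which include Alb and Ttr, 0 of 16 rows were called, with a median log2 difference of -0.04, and Tat (0.80) and Apoa1 (0.73) and no others had an unadjusted p under 0.05. Without FL2, 2 rows were called higher. They summed to 51375, 48284 and 49111 FPKM in rats CL5, CL6 and CL7, against 40847, 41301 and 39929 in FL2, FL5 and FL12, with Alb the most abundant and none at 0. Without Alb and Ttr the groups overlapped, with 11898, 11195 and 11524 FPKM in the CL rats and 13304, 11684 and 11400 in the FL rats. Markers of stellate cells or myofibroblasts were called higher for 5 of 11, for 8 without FL2 or with equal summed FPKM and for 0 with the variance of each gene alone, and summed to 91.1, 98.9 and 89.2 FPKM in the CL rats and 209, 556 and 504 in FL2, FL5 and FL12. Col3a1 was the most abundant, and FL2 lay lowest of the FL rats. Markers of macrophages were called higher for 6 of 10, with sums of 117, 112 and 117 FPKM in the CL rats and 337, 398 and 268 in the FL rats. Clec4f was the most abundant in the CL group and Gpnmb in the FL group. Called higher were also 1 of 9 markers of bile ducts, 3 of 8 of endothelium, 2 of 8 of lymphocytes and 4 of 10 of cycling cells, and 0 were called lower. The called lymphocyte markers were Ptprc, found on all leukocytes, and Cd4, found on rat macrophages as well, and Cd3e, Cd3d, Cd8a, Cd79a, Cd79b and Nkg7 were not called. The count for cycling cells was 0 without CL7, FL5 or FL12 and after quantile normalization, 1 without CL5 or CL6, 2 after median scaling and 10 without FL2. That for bile ducts was 0 without CL7 and 2 without FL2 or with equal summed FPKM. That for endothelium was 1 after median scaling or quantile normalization and in limma without trend, 0 without CL7, and 1 without CL5, CL6, FL5 or FL12. The bile duct markers, led by Epcam in the CL group and Spp1 in the FL group, summed to 10.6, 16.2 and 11.1 FPKM in the CL rats and 19.3, 75.4 and 49.3 in the FL rats, and those of cycling cells, led by Pcna, to 9.08, 11.3 and 8.69 in the CL rats and 13.02, 34.2 and 33.1 in the FL rats. In both of these lists FL2 lay nearest the CL rats. Endothelial markers, led by Kdr in the CL group and Lyve1 in the FL group, summed to 93.7, 93.1 and 84.5 FPKM in the CL rats and 114, 99.8 and 111 in the FL rats, and lymphocyte markers, led by Cd4, to 15.4, 13.4 and 13.8 in the CL rats and 30.6, 39.8 and 32.5 in the FL rats. None of the markers of these lists was at 0 in every rat. The part of these cells in the result was not tested.

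The genes whose pattern over the 6 rats was most like that of Alb, out of 10535 genes averaging 1 FPKM or more, were LOC100912610 (Pearson's r = 0.992), Fyttd1 (0.988) and Cela1 (0.986). For Afp they were Noc2l (0.996), Anapc7 (0.995) and Cybrd1 (0.995). LOC100912610 had 53.3, 34.9 and 26.5 FPKM in the CL rats and 0, 0.30 and 0.11 in the FL rats. Noc2l had 7.40, 8.26 and 7.26 in the CL rats and 6.74, 9.45 and 11.4 in the FL rats.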

How the data were processed

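The authors used FASTX-Toolkit for trimming and TopHat2 for alignment (named in the submitters' processing notes, with the genome GRCh38, although identifiers are those of the rat in Ensembl), and deposited FPKM per gene. No scaling beyond FPKM is stated. A further 2 columns of values, which match no sample, were not used. Groups came from the labels. Members and lists were chosen with earlier results of these data known. Genes averaging 0.1 FPKM or more were tested with limma 3.58.1 (R 4.3.3), with a mean-variance trend, on log2(FPKM + 0.1), a scale that understates changes of low genes, with Benjamini-Hochberg adjustment over 14864 genes. The fit was also run on simulated data, from which no result is reported here. Named genes were the members, genes of the lists and, for Alb and Afp, the 3 most correlated genes; Mup5 was chosen after its values were seen. Between pairs of rats, 0.866% to 2.54% of values above 0 were identical. Read totals were not used. Steps in low values of U6 genes gave depths, relative to CL5, of 0.656 to 0.84 in the other rats. Alternatives were other pseudocounts, filters, scalings and limma settings, and leaving out each rat. Python 3.11.15 with pandas 2.3.3 was used for the rest.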

Additional observations from a re-analysis of the deposited data

How the results depend on the processing

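Of the members, 0 of 10 were called higher by limma under every setting, and 0 lower except 1 after median scaling (Afm), 1 with the variance of each gene alone (Alb) and 2 after median scaling without FL2 (Afm and Ambp), the last pair of settings chosen after seeing the data. Signs reversed for Alb (0.49), Afp (-0.17) and Rbp4 (0.01) after quantile normalization, for Rbp4 (0.03) with equal summed FPKM, and for Ahsg (-0.06) after median scaling. The reversal of Alb followed from its ranks in each rat, and the cause of the others was not tested. The members' summed FPKM in the FL group, 82.8% of the CL group, became 70.8% after median scaling, 93.7% with equal summed FPKM and 81.1% with equal sums outside the 10 highest genes, and ran from 82% to 84.1% with a rat left out.

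Of genes in the lists other than members and cell markers, 20 were higher and 5 lower. The higher count was 12 after quantile normalization, 28 with equal summed FPKM, 4 with the variance of each gene alone and 13 to 22 with a rat left out. The lower count was 3 in limma without trend, 0 with the variance of each gene alone, 19 after median scaling without FL2, and 2 to 12 with a rat left out. Of the cell markers other than members, 21 were higher and 0 lower. The higher count was 31 with equal summed FPKM, 14 after quantile normalization, 6 with the variance of each gene alone and 12 to 33 with a rat left out, and 1 was lower after median scaling without FL2. Neighbours of Alb had 0 calls, but 1 higher in limma without trend (Adamts3) and 1 lower after median scaling or quantile normalization (Rassf6). Over all genes, 2518 were higher and 288 lower. These became 1301 and 533 after median scaling, 782 and 533 after quantile normalization, 3939 and 191 with equal summed FPKM, 444 and 56 with the variance of each gene alone, and 1564 and 700 after median scaling without FL2. With equal sums outside the 10 highest genes, 1673 were higher. With a rat left out, 938 to 3198 were higher and 121 to 338 lower.

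The rats had been divided at random into the groups and no pairing was stated, so no paired analysis was made. Each group had 3 rats, no read counts were available, and values near 0.1 FPKM rest on few reads.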
